A study of Mus musculus with 8 samples.

Results

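The genes described here are 10 phagocytic and scavenger receptors and their partners, of 30406 genes that the count files of all 8 libraries share: Axl, Mertk, Gas6, Timd4, Itgam, Itgax, Msr1, Marco, Cd68 and Cd5l. They were taken as a fixed list, and each of the 10 was found under 1 identifier. Their transcripts were summed over the cells of a cluster in each library and are given as unique molecular identifiers (UMIs, 1 for each captured transcript) per 1000000 UMIs of that sum, called CPM.

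Phagocytes recognize dying cells by phosphatidylserine on the cell surface. Axl and Mertk are receptor tyrosine kinases of the TAM family, and Gas6 is a bridging ligand that binds phosphatidylserine and activates them. Timd4 (TIM-4) binds phosphatidylserine directly and is known from long-lived resident macrophages. Itgam (CD11b) and Itgax (CD11c) are integrin alpha chains that pair with Itgb2 to form complement receptors. Msr1 (scavenger receptor A) and Marco are class A scavenger receptors for modified lipoproteins, debris and microbes, Cd68 is a lysosomal glycoprotein of phagocytes, and Cd5l (AIM) is a secreted scavenger protein of macrophages. In the brain, microglia and the macrophages of the meninges are the main phagocytes.

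The libraries were made with droplet-based single-cell RNA-sequencing of wild-type C57BL/6 mice, adult males of 10 to 16 weeks by the study's methods. Leukocytes were sorted as CD45+ cells not stained by a CD45 antibody given intravenously (CD45iv-), from brain parenchyma, pia mater and dura mater. Control mice gave 1 library of each tissue, and mice after transient middle cerebral artery occlusion of 30 or 45 min gave 2 libraries of brain, 1 of pia and 1 of dura at 24 h and 1 of brain at 72 h. The methods name naive mice as controls where a legend names sham mice, and the study states that repeated experiments were pooled for each compartment without giving the number of mice in each library, so that tests measure the spread between libraries, which may be technical in part.

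The authors' 21 clusters of 32457 cells were used as they are. The microglia clusters were Micro_1, Micro_2, Micro_3 and stress_Micro, and the macrophage clusters were CAM_1 and CAM_2 (CNS-associated macrophages), Macro_1 and Macro_2. SAMC are the stroke-associated myeloid cells of the study, Granulo stands for granulocytes and mDC for myeloid dendritic cells. The libraries held 6591898 to 20754181 UMIs, and the median annotated cell held 1083 to 2505. No pair of libraries shared more than 43 cell barcodes.

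Before the results, 3 properties of the libraries have to be named. First, brain 24 h replicate 2 and brain 72 h carry a shorter gene list than the other 6 libraries (31053 against 32285 genes), and only 13.2% and 13.5% of their barcode starts (first 6 bases) occur in control brain, where the other libraries share 100% of theirs. Second, brain cells of the clusters named CAM carried few border macrophage markers. The summed level of 6 such markers (Pf4, Lyve1, Mrc1, Cbr2, F13a1 and Folr2) was 9.33 to 562 CPM in CAM_1 of the control and 24 h brain libraries and 4759 to 6958 CPM in pia and dura. Last, the cluster named Granulo_1 carried more monocyte than neutrophil transcripts in each of 7 libraries: 4 monocyte markers (Ly6c2, Ccr2, Plac8 and Chil3) summed to 731 to 8538 CPM and 5 neutrophil markers to 77.5 to 3448 CPM.

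The upstream sequence of 4 members is shown because these genes form pairs with unlike cluster patterns. Itgam and Itgax are neighbors on chromosome 7 (128062640 to 128118491 and 128129547 to 128150657, plus strand, GENCODE M21 on GRCm38), and Axl and Mertk are receptors of 1 ligand on chromosomes 7 (25757273 to 25788705, minus strand) and 2 (128698956 to 128802894, plus strand). The windows run from 250 bases before to 50 bases after the RefSeq start site on GRCm38.p6, and 9 members had an entry. Capitals mark GAGGAA, the core bound by the myeloid factor PU.1, and TGANTCA, the site of AP-1 factors, each searched on both strands.
Itgam (chr7:128062390-128062689, plus strand): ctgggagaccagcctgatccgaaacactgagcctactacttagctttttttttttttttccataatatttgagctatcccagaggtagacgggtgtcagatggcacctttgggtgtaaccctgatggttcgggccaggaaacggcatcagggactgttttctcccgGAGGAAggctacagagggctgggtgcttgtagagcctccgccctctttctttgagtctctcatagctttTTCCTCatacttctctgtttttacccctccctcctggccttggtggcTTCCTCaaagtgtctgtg
Itgax (chr7:128129300-128129599, plus strand): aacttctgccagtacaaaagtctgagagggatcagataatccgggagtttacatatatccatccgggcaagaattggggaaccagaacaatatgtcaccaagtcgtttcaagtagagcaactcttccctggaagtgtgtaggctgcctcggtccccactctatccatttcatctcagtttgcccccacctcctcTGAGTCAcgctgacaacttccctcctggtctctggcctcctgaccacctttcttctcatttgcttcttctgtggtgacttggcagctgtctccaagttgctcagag
Axl (chr7:25788684-25788983, minus strand): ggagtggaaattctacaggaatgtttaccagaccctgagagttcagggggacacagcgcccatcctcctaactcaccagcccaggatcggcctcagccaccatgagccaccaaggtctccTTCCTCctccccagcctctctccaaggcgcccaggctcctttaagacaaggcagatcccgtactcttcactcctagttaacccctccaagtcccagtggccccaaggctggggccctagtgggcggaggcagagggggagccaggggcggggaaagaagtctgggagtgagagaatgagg
Mertk (chr2:128698665-128698964, plus strand): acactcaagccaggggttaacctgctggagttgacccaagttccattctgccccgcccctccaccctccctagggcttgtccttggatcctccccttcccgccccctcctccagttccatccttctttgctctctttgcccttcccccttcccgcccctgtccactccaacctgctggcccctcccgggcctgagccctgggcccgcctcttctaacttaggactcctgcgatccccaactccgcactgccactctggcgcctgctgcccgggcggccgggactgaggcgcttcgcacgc
The Itgam window held 3 GAGGAA matches that begin 84 and 15 bases before and 32 bases after the start site, the Itgax window 1 TGANTCA match, the Axl window 1 GAGGAA match and the Mertk window none of either. Of 32851 mouse promoter windows of this length, 28.3% held GAGGAA and 7.81% held TGANTCA. None of the marked matches overlapped another, and such a match is a description of the letters and not of binding.

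The members separated the myeloid clusters in different ways. Of the 10 genes, 9 reached a mean of 20 CPM in at least 1 non-lymphoid cluster, over libraries with at least 30 cells of it, and Marco did not. Cd5l reached it in Macro_1 alone (23.4 CPM), which is 1 library, brain at 72 h, with 4 Cd5l UMIs in 3 cells. Axl and Itgax were highest outside microglia, Mertk was highest in microglia, Gas6 and Timd4 in CAM_2, and Msr1 and Cd68 in SAMC. For Gas6, Timd4 and Cd68 the lead over the next cluster lay within the spread, at 0.14, 0.10 and 0.26 of the larger SD. Itgam was spread over microglia, macrophage, SAMC and Granulo clusters. Clusters were made from these same counts, so that levels of clusters are described and not tested.

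**Figure D1:**
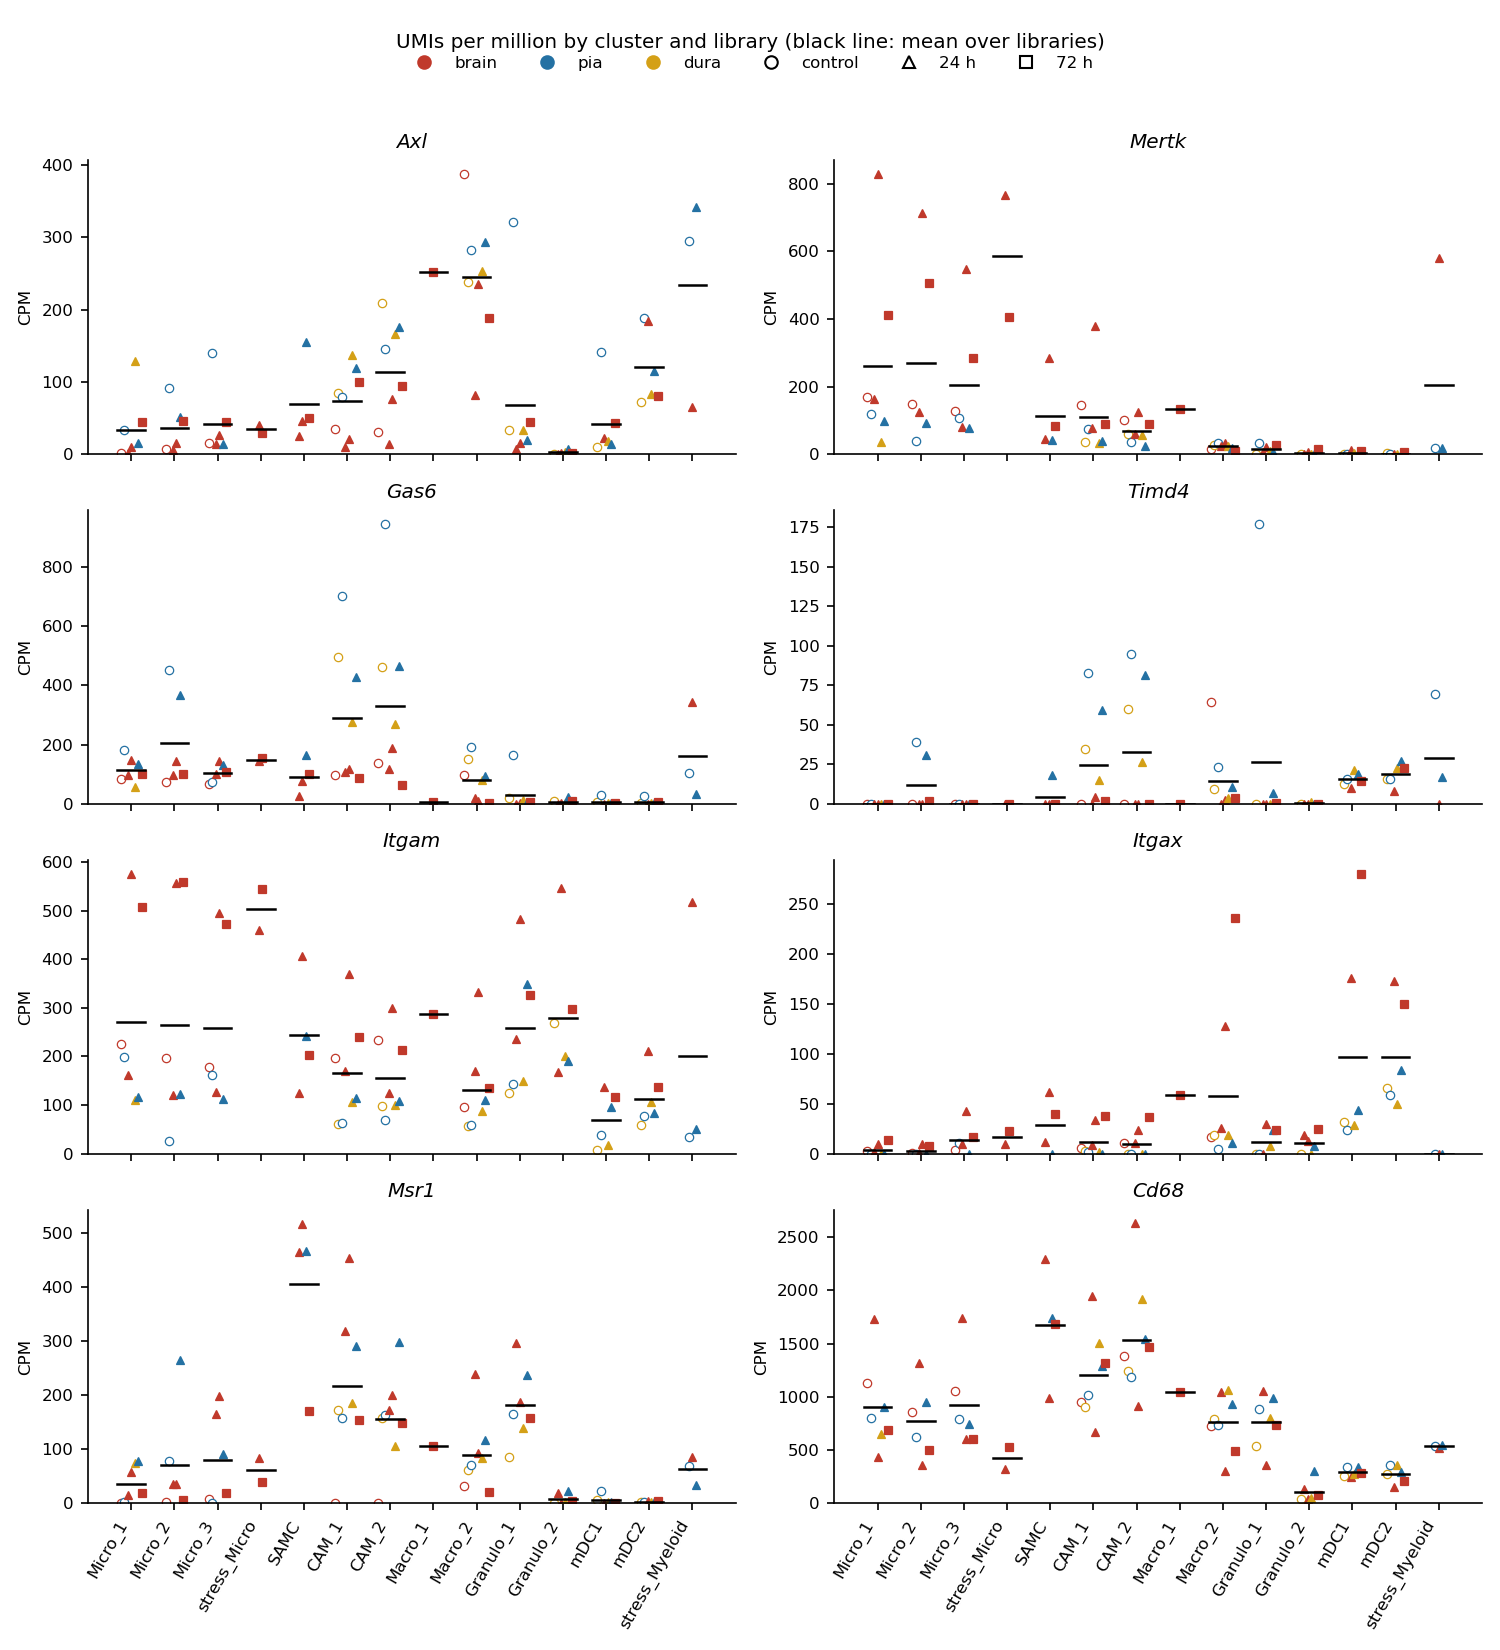
Each point is 1 library with at least 30 cells of the cluster on the x axis, and the y axis gives the gene's CPM. Color gives the tissue, shape the time, and the black line the mean over libraries. By mean, Mertk stands highest in stress_Micro, Micro_2 and Micro_1, Axl in Macro_1, Macro_2 and stress_Myeloid, and Msr1 in SAMC. The brain 24 h replicate 2 and brain 72 h libraries, the only ones shown for stress_Micro, lie above the others for Mertk and Itgam in microglia.

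Axl averaged 245 ± 87.8 CPM (SD, n = 8 libraries) in Macro_2, with the lowest library at 82.1 (brain 24 h replicate 1) and the highest at 388 (control brain). The single library of Macro_1, brain at 72 h, gave 251.5 CPM, and stress_Myeloid averaged 234 ± 148 CPM (SD, n = 3), so these 3 clusters did not differ beyond their spread. mDC2 followed with 121 ± 53.0 CPM (n = 6), CAM_2 with 114 ± 71.1 and CAM_1 with 73.0 ± 47.1 (n = 8). The 4 microglia clusters averaged 33.6 to 42.2 CPM, SAMC 68.9 ± 58.6 CPM (n = 4), and in the microglia sum over control brain Axl was at 5.24 CPM.

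Mertk showed another order of clusters. It averaged 271 ± 274 CPM (SD, n = 6) in Micro_2, 260.5 ± 277 (n = 7) in Micro_1 and 204 ± 185 (n = 6) in Micro_3, and the 2 libraries of stress_Micro gave 768 and 407 CPM. SAMC averaged 113 ± 115 CPM (n = 4), CAM_1 108 ± 115 and Macro_2 23.0 ± 8.00 (n = 8). The large SDs come from brain 24 h replicate 2 and brain 72 h, the same 2 libraries that make up the stress_Micro mean. There Micro_1 held 829 and 413 CPM, against 37.0 to 168 CPM in the other 5 libraries with at least 30 such cells. Within both sets of libraries the 3 numbered microglia clusters of the brain lay above Macro_2. Outside microglia, stress_Myeloid averaged 205 ± 326 CPM (SD, n = 3), and the single library of Macro_1 gave 134.5 CPM. Counted in cells thinned to 1000 UMIs each, 17.1% of microglia and 2.44% of Macro_2 cells held a Mertk UMI, against 0.250% of lymphoid cells, which serve as background. The cells kept had median depths of 1648 UMIs (microglia), 2408 (Macro_2) and 1294 (lymphoid) before thinning. For Axl the order was the reverse, with 1.06% of microglia, 21.5% of Macro_2 cells and 0.786% of lymphoid cells. Without thinning the shares were 27.7% and 5.16% for Mertk and 1.96% and 41.0% for Axl.

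Gas6, the ligand of both receptors, averaged 331 ± 291 CPM (SD, n = 8) in CAM_2 and 289 ± 231 CPM (n = 8) in CAM_1, where pia and dura exceeded brain in every library. The numbered microglia clusters averaged 115 ± 42.9 (Micro_1, n = 7), 206 ± 163 (Micro_2, n = 6) and 105 ± 31.2 CPM (Micro_3, n = 6), and Macro_2 81.0 ± 68.1 CPM. The tissues differed within Micro_2. After thinning, 48.8% of 41 cells in control pia and 35.7% of 56 in pia at 24 h held a Gas6 UMI. In the brain libraries of Micro_2 the shares were 6.77% to 11.0%. Dendritic cells were near the lymphoid level, at 7.49 CPM in mDC1 and 6.79 CPM in mDC2 beside 10.7 CPM over the lymphoid clusters.

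Timd4 was sparse, with 616 UMIs in 498 of 32457 cells. It averaged 32.8 ± 40.1 CPM (SD, n = 8) in CAM_2 and 24.7 ± 31.4 CPM in CAM_1, and every library of pia or dura lay at 15.02 CPM or above in both, whereas brain libraries lay between 0 and 4.16 CPM. mDC2 and mDC1 carried 18.7 ± 6.94 and 15.4 ± 4.16 CPM (n = 6) with far less variation between tissues, from 7.85 to 27.4 and from 9.74 to 21.3 CPM. In stress_Myeloid Timd4 averaged 28.8 ± 36.2 CPM (SD, n = 3). A value of 177 CPM in Granulo_1 of control pia rested on 16 UMIs in 55 cells, and the same 55 cells carried 29 Axl UMIs and 3178 CPM of border macrophage markers. What part these markers have in the Timd4 value was not tested.

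Of the 2 integrin chains, Itgam was broad and Itgax narrow. Itgam averaged 259 ± 133 CPM (SD, n = 7) in Granulo_1, 279 ± 141 (n = 6) in Granulo_2 and 257.5 to 271 CPM in the 3 numbered microglia clusters, and these 5 did not differ beyond their spread. The mean of stress_Micro was higher (503 ± 59.8 CPM, SD, n = 2), but its 2 libraries were those with the shorter gene list, where the sum of all microglia clusters held 530 and 517.5 CPM. SAMC averaged 244 ± 118 CPM (SD, n = 4), stress_Myeloid 201 ± 274 CPM (n = 3), and the single library of Macro_1 gave 286.6 CPM. CAM_1, CAM_2 and Macro_2 carried 165, 156 and 131 CPM, and the lymphoid clusters 23.0 CPM. Itgax was highest in mDC1 (97.0 ± 107 CPM) and mDC2 (96.6 ± 51.6 CPM, n = 6), and NK cells, a lymphoid cluster, carried 58.5 ± 21.1 CPM (n = 6). In mDC1 the brain 24 h replicate 2 and brain 72 h libraries held 175 and 280 CPM and the 4 libraries of pia and dura 23.5 to 43.7 CPM. In mDC2 the same sets held 173 and 149 CPM and 49.3 to 84.1 CPM. Only these 2 brain libraries, both with the shorter gene list, had at least 30 cells of either cluster. Tissue and gene list cannot be told apart here. The order of these 2 clusters was not settled, since mDC2 came first with a minimum of 10 cells or with cells of at least 1000 UMIs. Macro_2 averaged 57.1 ± 82.2 CPM, but its 2 libraries with the shorter gene list held 128 and 235 CPM where the other 6 held 4.99 to 25.3 CPM. The means of the microglia clusters lay between 3.02 and 16.2 CPM.

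Msr1 was highest in SAMC, at 405 ± 158 CPM (SD, n = 4), followed by CAM_1 at 217 ± 136 (n = 8), Granulo_1 at 181 ± 68.5 (n = 7) and CAM_2 at 156 ± 84.2 (n = 8). The SAMC mean holds no control library. CAM_1 averaged 312 CPM over the 4 libraries at 24 h and 110 CPM over the 3 control libraries. Granulo_2, the second cluster named for granulocytes, held 8.03 CPM, and mDC1 and mDC2 held 5.77 and 3.11 CPM, all near the 6.71 CPM of the lymphoid clusters. After thinning, 23.7% of SAMC, 14.7% of Granulo_1 and 0.275% of Granulo_2 cells held an Msr1 UMI, beside 0.357% of lymphoid cells, and the unthinned shares were 48.75%, 33.1%, 0.630% and 0.540%. Median depths of the cells kept were 3672, 2776, 2126 and 1294 UMIs. For CAM_1 the share was 18.85% with thinning and 32.5% without, and the cells kept had a median depth of 2167 UMIs.

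Cd68 followed a related order, with 1676 ± 534 CPM in SAMC (n = 4), 1535 ± 529 in CAM_2 and 1200.0 ± 401 in CAM_1 (n = 8). SAMC and CAM_2 did not differ beyond their spread, and CAM_2 averaged 1750 CPM over the 4 libraries at 24 h. The means of all microglia and macrophage clusters were above 400 CPM, and the lymphoid clusters held 60.4 CPM. Granulo_1 and Granulo_2 differed here too, with 764.5 and 109 CPM. Over the 21 cluster means the profile of Cd68 was most like those of the cathepsins Ctsz and Ctsb (Pearson r 0.97 each, log2 scale), and that of Msr1 most like Ctsb (0.94). Cxcl16, a chemokine that also acts as a scavenger receptor, was most like Axl (0.93), Pald1, Smo and Srgap2 were most like Mertk (0.98 each), and Trpv4 most like Gas6 (0.93). For Itgax, Itgam, Cd5l and Timd4 the leading genes were Olfm1 (0.90), Lims1 (0.95), Fmn1 (0.90) and Serpinb8 (0.83). These 21 points share libraries and depth and are a description only.

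Cd5l and Marco were rare. Cd5l gave 170 UMIs in 103 cells, of which 96 UMIs fell in 44 SAMC, and 73 of these came from 28 SAMC of brain at 72 h, where 1 cell held 21. SAMC thus had 31.7 CPM in brain at 72 h, 21.6 and 4.11 CPM in the brain libraries at 24 h and 9.13 CPM in pia at 24 h. In the macrophage clusters of these libraries Cd5l was at 3.84, 3.67, 5.57 and 0.249 CPM. Marco gave 84 UMIs in 15 cells, and 4 cells held 70 of them: a Micro_3 cell with 42 and a SAMC cell with 11 in brain 24 h replicate 1, a Micro_1 cell with 12 at 72 h, and a SAMC cell with 5 in pia at 24 h. A mean of Marco over a cluster is therefore the value of single cells.

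In brain microglia, Msr1 was higher after stroke. Its level in the sum of the 4 microglia clusters was 2.62 CPM in control brain (16 UMIs in 3733 cells), 54.0 and 84.0 CPM in the replicates at 24 h (266 UMIs in 2998 cells and 193 in 1998) and 16.5 CPM at 72 h (27 UMIs in 1027 cells). The exact 95% counting intervals, 1.498 to 4.26, 47.7 to 60.9, 72.6 to 96.7 and 10.9 to 24.0 CPM, did not overlap. These were 20.6-fold and 32.1-fold the control at 24 h and 6.29-fold at 72 h, and with 1 control library no p-value can be given. The first of these folds compares libraries with the same gene list. At 24 h Micro_3 held more Msr1 (166 and 199 CPM) than Micro_1 (16.3 and 57.4) and Micro_2 (36.5 and 36.1). The thinned share of Msr1-positive microglia was 0.140%, 3.25%, 6.66% and 1.47% in the same order of libraries (unthinned 0.429%, 5.60%, 6.21% and 2.14%).

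Of the 5 members with a mean of at least 20 CPM in either state (Mertk, Gas6, Itgam, Msr1 and Cd68), Msr1 was the 1 that changed at least 2-fold in the same direction in both replicates. Marco, below that minimum, held 0 UMIs in control and 46 and 2 at 24 h, and 42 of the 46 came from the single Micro_3 cell named above. Of 6489 genes with a mean of at least 20 CPM in either state, 1.8% were higher and 0.231% lower by this rule. The summed level of the SAMC markers Spp1, Fabp5, Gpnmb and Lpl was higher in these microglia sums too, at 11.1 CPM in control, 578 and 589 CPM at 24 h and 526 CPM at 72 h, and their part in the Msr1 value was not tested. Microglia of pia, 293 and 330 cells, held 14.9 CPM of Msr1 in control and 116 CPM at 24 h.

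Mertk, Itgam and Cd68 moved apart between the 2 replicates. Mertk was at 155 CPM in control microglia, 131 CPM in replicate 1 and 710 CPM in replicate 2, and Itgam at 209, 139 and 530 CPM. Cd68 went the other way, from 1018 CPM to 1576 CPM in replicate 1 and 422 CPM in replicate 2. In each case replicate 2 lay beside the 72 h library (401.5 CPM of Mertk, 517.5 of Itgam and 582 of Cd68), the library with the same gene list. Within the first set of libraries, control to 24 h replicate 1, the folds were 0.846 for Mertk, 0.665 for Itgam and 1.55 for Cd68. Within the second, 24 h replicate 2 to 72 h, the log2 ratios were -2.33 for Msr1, -0.82 for Mertk, -0.03 for Itgam and 0.46 for Cd68. Gas6 was at 78.0, 98.3 and 145 CPM in control and at 24 h and at 109 CPM at 72 h. Axl was at 5.24, 5.69, 21.3 and 43.3 CPM in the same order, with the 2 higher values in the libraries with the shorter gene list. Comparisons of 72 h with control, and of replicate 2 with control, cannot be told apart from this difference between libraries.

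**Figure D2:**
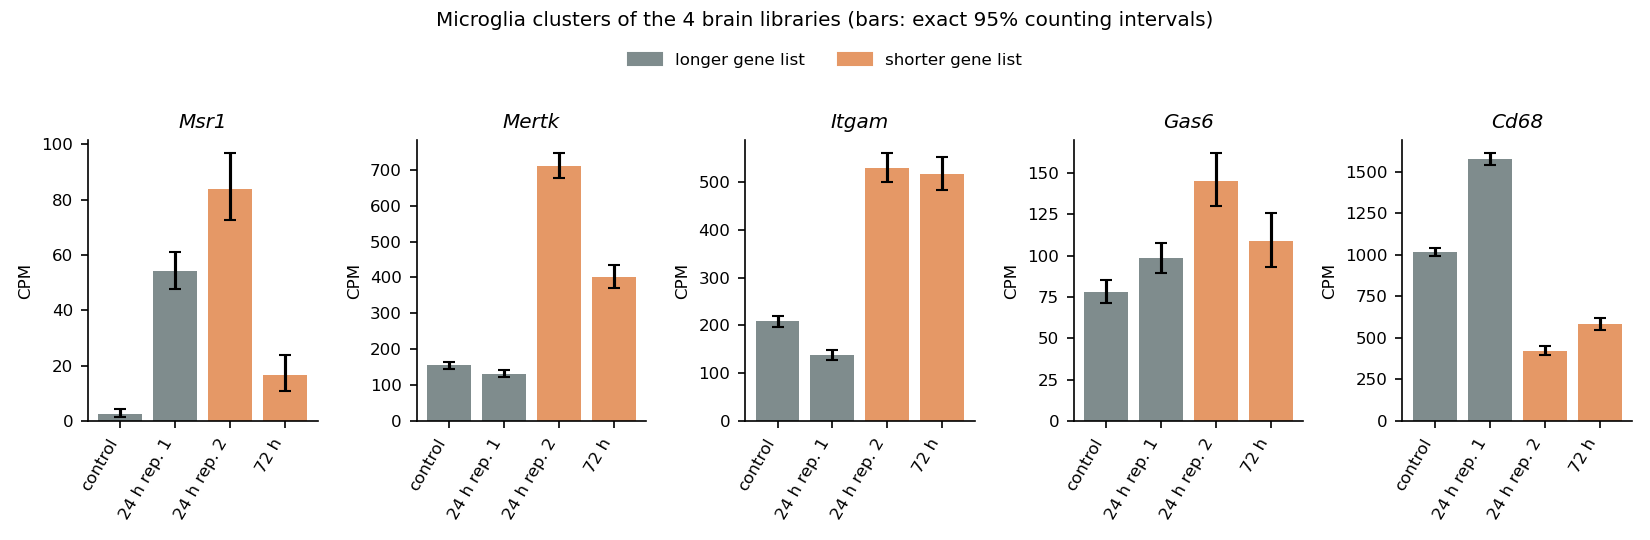
Bars give the CPM (y axis) of 5 members in the summed microglia clusters of the 4 brain libraries (x axis), with exact 95% counting intervals. Gray bars are the libraries with the longer gene list and orange bars those with the shorter one. Msr1 is above control in each later library, whereas Mertk, Itgam and Cd68 separate by gene list.

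SAMC were compared with the macrophage clusters of the same library in the 4 libraries with at least 30 SAMC. Msr1 was higher in SAMC in 4 of 4 libraries: 465 against 285 CPM and 517 against 221 CPM in the brain replicates at 24 h, 171 against 100 CPM in brain at 72 h and 466 against 221 CPM in pia at 24 h. The mean log2 ratio was 0.95 ± 0.25 (SD, n = 4), close to 2-fold, and it exceeded 2-fold in replicate 2 and pia (1.23 and 1.08) but not in replicate 1 and at 72 h (0.71 and 0.77). Cd68 was higher in 4 of 4 libraries as well, by 0.58 ± 0.30, although its mean in SAMC did not differ from that in CAM_2 beyond the spread. For Msr1 the brain libraries differed less from CAM_1 alone. That cluster held 318 and 453.5 CPM in the replicates at 24 h and 155 CPM at 72 h. After thinning, 34.4% of SAMC and 21.4% of CAM_1 cells held an Msr1 UMI in replicate 1, and 27.3% and 23.5% in pia at 24 h. The shares were close in replicate 2 (41.9% and 40.3%) and in brain at 72 h (14.7% and 15.1%). The difference from CAM_1 was not tested.

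Within SAMC, Msr1 was lower at 72 h (171 CPM, 95% counting interval 155 to 189) than in the 3 libraries at 24 h (lowest bound 380 CPM). The other members above 20 CPM in either sum had no shared direction. Cd5l and Marco, below that level, had ratios above 0 in 4 of 4 libraries (means 2.62 and 3.70). In brain 24 h replicate 2 the sign of both was set by the added 0.5 UMIs. Axl was higher in SAMC in 1 of 4 libraries (mean log2 ratio -0.72 ± 1.04), Mertk in 3 (0.36 ± 0.69), Gas6 in 2 (-0.36 ± 1.39), Itgam in 3 (0.30 ± 0.61) and Itgax in 1 (-0.64 ± 0.77). Thus 0 of the 7 members above 20 CPM in either sum changed at least 2-fold in 1 direction in every library, and over 6023 genes 0.133% were higher and 0.681% lower by that rule.

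**Figure D3:**
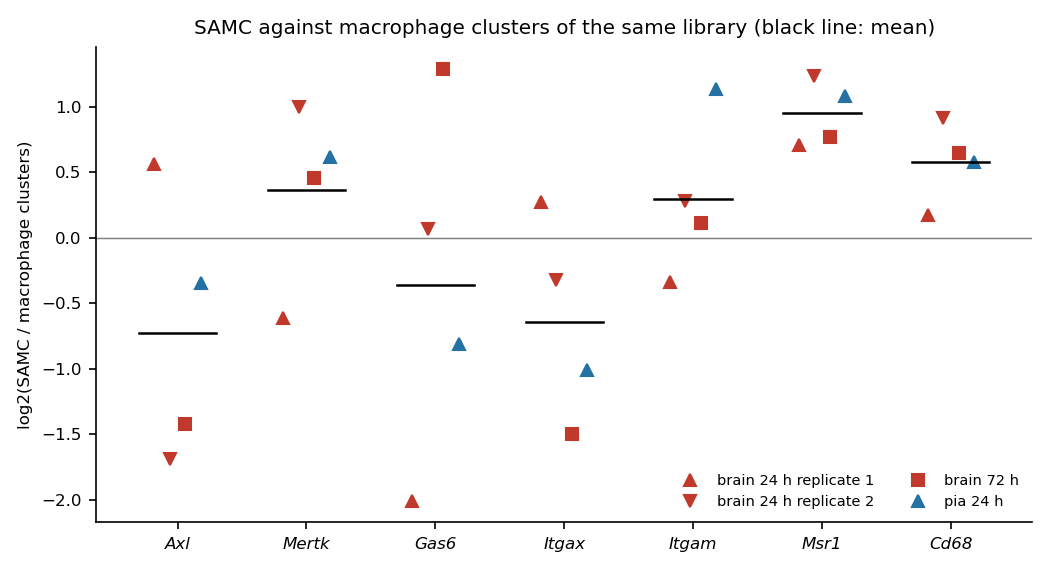
The y axis gives the log2 ratio of CPM in SAMC to CPM in the macrophage clusters of the same library, with 0.5 UMIs added to each count, for the 7 members on the x axis. Points are the 4 libraries and black lines their mean. Msr1 and Cd68 lie above 0 in 4 of 4 libraries, and Axl, Gas6 and Itgax spread to both sides.

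Levels in brain were then compared with the border tissues pia and dura, in CAM_1, CAM_2 and Macro_2, the clusters with at least 30 cells in each of the 7 control and 24 h libraries. In CAM_1, Axl was at 34.1 CPM in control brain and 9.33 and 20.8 CPM in the brain replicates at 24 h. In control pia and dura it was at 78.9 and 84.1 CPM, and at 24 h at 119 and 138 CPM. The brain and border groups of these 7 libraries did not overlap. Axl was lower in brain by a log2 fold change of -2.78 ± 0.57 (SE; n = 3 and 4 libraries), with an adjusted p of 0.023 in edgeR's quasi-likelihood test. The brain 72 h library was not part of this comparison, and its CAM_1 cells did not lie below all border libraries. After thinning, 8.72% of them held an Axl UMI, beside 6.52% in control pia and 8.47% in control dura. The shares were 11.2% and 14.9% in pia and dura at 24 h, and 0.792% to 2.80% in the brain libraries compared.

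Gas6 in CAM_1 held 97.0, 109 and 117 CPM in brain and 278 to 704 CPM in the border libraries, with a log2 fold change of -2.35 ± 0.38 and an adjusted p of 0.0107 (edgeR). Timd4 held 1 UMI in CAM_1 of the 3 brain libraries and 250 UMIs in the 4 border libraries, with an adjusted p of 0.00913 (edgeR). Summed over libraries the border level was 119-fold the brain level, with an exact 95% counting interval of 21.2 to 4715. In CAM_1, 3 of 7 members tested were thus called, all lower in brain, and a call needed both a 2-fold difference and an adjusted p below 0.05. The background was 9.45% of 7537 genes called in either direction, 306 higher and 406 lower (539 and 277 with scaling by library size alone, which moved the median log2 fold change of all genes from 0.13 to 0.51).

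CAM_2 showed these 3 members too. Axl was at 30.6, 14.6 and 76.5 CPM in brain and 145 to 209.5 CPM in the border libraries (log2 fold change -2.38 ± 0.55, adjusted p = 0.0355, edgeR). Gas6 was at 116 to 188 CPM in brain and 270 to 946 CPM in the border libraries (-1.76 ± 0.42, adjusted p = 0.0414, edgeR). Timd4 was at 0 in all 3 brain libraries and at 26.7 to 94.6 CPM in the border libraries (adjusted p = 0.00644, edgeR), at least 19.5-fold higher in the border sum than the limit of 3 counts over the brain group allows. Here 3 of 7 members were called, beside 5.66% of 4837 genes, 132 higher and 142 lower (206 and 104 with library size alone).

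In Macro_2, edgeR called 0 of 8 members, beside 0.303% of 8245 genes. By that tool 3 members had an unadjusted p under 0.05 (Gas6, Itgax and Itgam), and DESeq2 called 1, Gas6 (-2.14, adjusted p = 0.0295). All genes called were 6 higher and 19 lower (11 and 9 with library size alone, 51 and 62 by DESeq2). Gas6 was at 96.9, 19.0 and 11.0 CPM in brain and 78.9 to 192 CPM in the border libraries, and the groups overlapped (-2.28 ± 0.49, adjusted p = 0.0811, edgeR). Axl was at 82.1 to 388 CPM in brain and 238 to 293 CPM in the border libraries. Mertk was higher in brain by 1.80 ± 0.57 on the log2 scale in CAM_1 and by 1.06 ± 0.42 in CAM_2, without passing the test (adjusted p = 0.0864 and 0.15, edgeR). Itgam differed by 1.06 ± 0.37 and 1.07 ± 0.40 in these clusters (adjusted p = 0.112 and 0.132, edgeR), and Msr1 and Cd68 were not called in any of the 3 clusters.

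**Figure D4:**
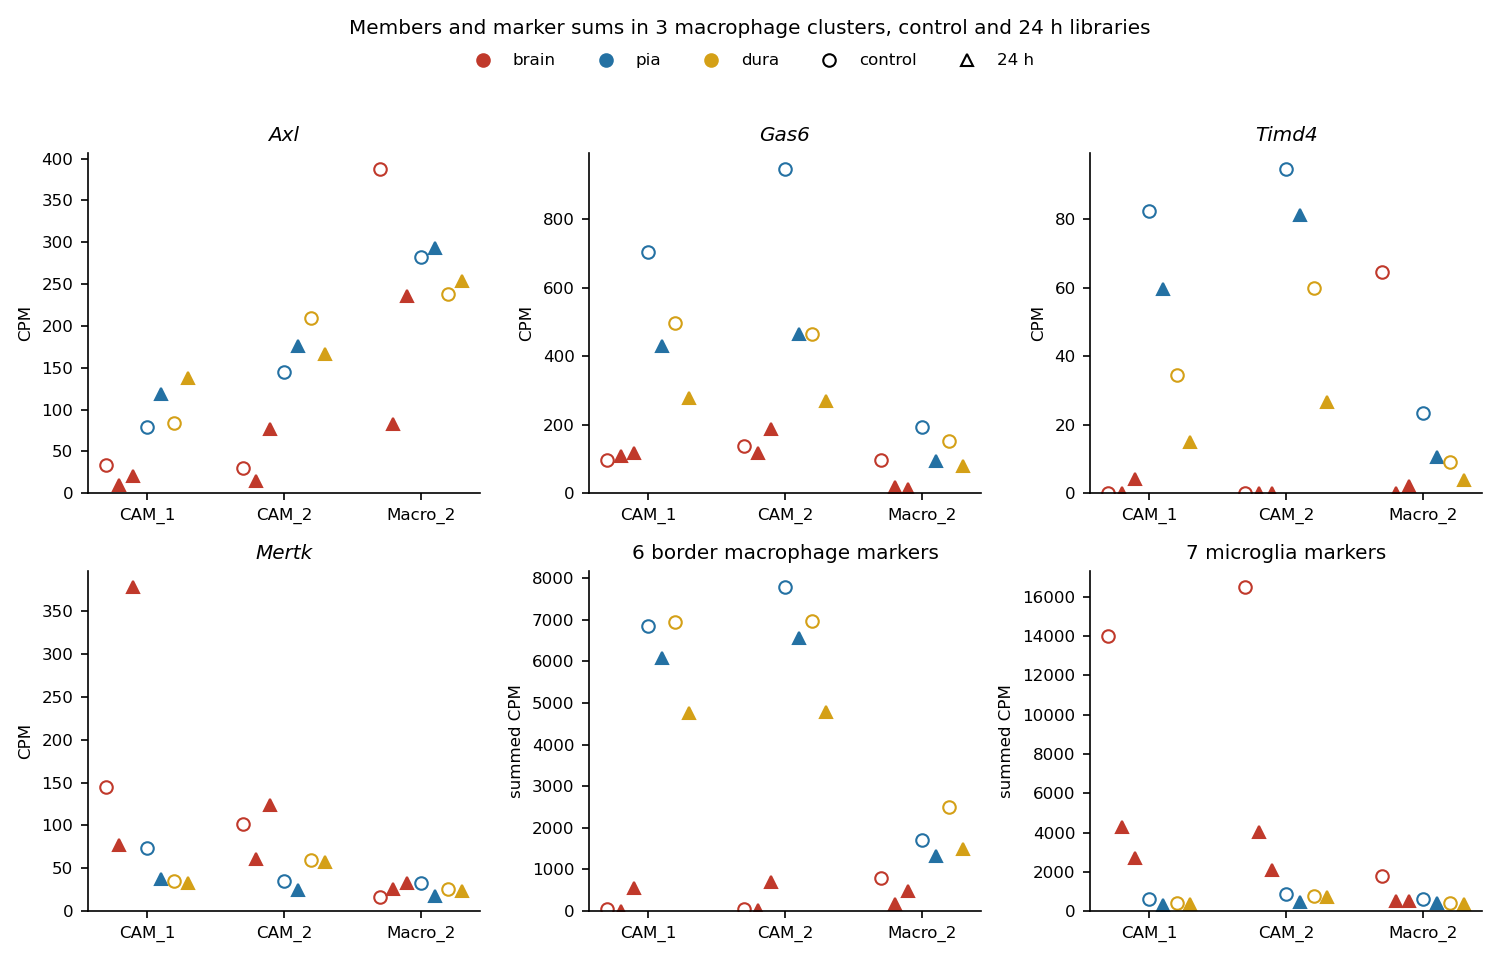
Levels (y axes, CPM or summed CPM of a marker list) in the 3 clusters on the x axes, with 1 point for each of the 7 control and 24 h libraries. Axl, Gas6 and Timd4 are lower in the brain libraries of CAM_1 and CAM_2, where the 6 border macrophage markers are also lower and the 7 microglia markers higher.

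The cells behind these values differed in their markers as well. In CAM_1 7 microglia markers (Tmem119, P2ry12, Sparc, Cx3cr1, Gpr34, Siglech and Sall1) summed to 2717 to 14029 CPM in the 3 brain libraries and 308 to 593 CPM in the 4 border libraries, and in CAM_2 to 2084 to 16505 and 471 to 879.5 CPM. In CAM_2 the 6 border macrophage markers summed to 18.7 to 689 CPM in brain and 4794 to 7783 CPM in pia and dura, and up to 3 of the 6 were at 0 in a brain library. Lyve1 was at 0 in CAM_1 and CAM_2 of control brain and brain 24 h replicate 1. A comparison within a cell type cannot be told apart from this difference in cells under 1 cluster name.

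With brain 24 h replicate 2 left out, all libraries carried the longer gene list, and Axl, Gas6 and Timd4 were again called lower in brain in CAM_1 (adjusted p = 0.000486, 3.81e-06 and 2.65e-06) and in CAM_2 (6.17e-06, 2.63e-05 and 3.36e-05, edgeR). Over all genes, 1005 were then called higher and 1136 lower in brain in CAM_1, and 513 and 509 in CAM_2. Gas6 was also called in Macro_2 (-1.75, adjusted p = 0.00777, edgeR), where 58 genes were called higher and 179 lower. Without control brain none of the 3 was called in either cluster (adjusted p from 0.0568 to 0.317, edgeR) while the direction stayed. Leaving out control dura, dura at 24 h, pia at 24 h or brain 24 h replicate 1 ended the call of Axl in CAM_1 and CAM_2 (adjusted p from 0.0559 to 0.131, edgeR). Gas6 lost its call in CAM_1 without control dura, dura at 24 h or pia at 24 h (0.0566 to 0.0874) and in CAM_2 without any 1 library other than brain 24 h replicate 2 (0.0912 to 0.317, edgeR). Timd4 lost it without control brain alone.

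Of 55 genes of the same pathways in 6 lists, 37 were tested in CAM_1 for brain against border, and 4 were called lower and 1 higher, beside 9.45% of all genes. In CAM_2 29 were tested, with 3 lower and 1 higher beside 5.66%, and in Macro_2 39, with 1 lower beside 0.303%. Of the 14 other scavenger receptors 8 were tested and 3 were lower in both CAM clusters: Cd36, which takes up oxidized lipoproteins, Cd163, the hemoglobin scavenger receptor, and Colec12, a collectin with a scavenger domain. Colec12 was at 0 in all brain libraries of CAM_1 and averaged 77.0 CPM in the border libraries (adjusted p = 0.00382, edgeR). Cd36 averaged 28.0 CPM in brain and 188.5 CPM in border CAM_1 (-3.38 ± 0.86, adjusted p = 0.0476, edgeR), and Cd163 18.0 and 400 CPM (adjusted p = 0.0421, edgeR). Cd163 was also the 1 list gene called in Macro_2, lower in brain at 14.4 against 92.1 CPM (adjusted p = 0.047, edgeR). Spic, a factor of red pulp macrophages, was lower in CAM_1 (1.97 against 89.8 CPM, adjusted p = 0.00508, edgeR).

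Elmo1, which links receptors to Rac during engulfment, was the gene of the lists that was higher in brain, at 183 against 41.2 CPM in CAM_1 and 166 against 45.8 CPM in CAM_2 (adjusted p = 0.0324 and 0.0308, edgeR). The median log2 fold change of the 8 other scavenger receptors tested was -2.36 in CAM_1 and -2.19 in CAM_2, beside 0.13 and 0.10 over all genes tested. The list of other scavenger receptors includes Mrc1, which is also among the border macrophage markers given above. These medians are therefore not separate from the marker difference. The bridging molecules, the other phosphatidylserine receptors and the integrin partners had no called gene in the 3 clusters. Their genes with the largest differences in CAM_1 were Pros1 (0.96) and Thbs1 (0.66), Cd300lf (1.80) and Itgb5 (1.58), and Itga4 (-1.95) and Itgb2 (0.95), with adjusted p from 0.0623 to 0.751 (edgeR). Among the engulfment genes Xkr8, a phospholipid scramblase, had a log2 fold change of 2.93 without passing the test (adjusted p = 0.0625, edgeR).

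The change from control to 24 h was fitted over the same 7 libraries. No member was called in CAM_1 (0 of 7), CAM_2 (0 of 7) or Macro_2 (0 of 8), beside 0%, 0.0207% and 0% of all genes. At an unadjusted p under 0.05, 445, 402 and 332 genes passed, and DESeq2 called 20, 5 and 8. None of the 37, 29 and 39 pathway genes tested was called either. Those with the largest differences in CAM_1 and CAM_2 were Cd300lf, a phosphatidylserine receptor (3.46 and 4.50, adjusted p = 0.404 and 0.297), and in CAM_1 Thbs1, a bridging molecule (2.88, adjusted p = 0.8289, edgeR). Values within each tissue carry counting intervals, which do not cover the spread between animals.

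Gas6 was lower at 24 h in the border tissues. In pia the levels in control and at 24 h were 704 and 429 CPM in CAM_1, 946 and 464 in CAM_2 and 192 and 95.2 in Macro_2, folds of 0.610, 0.491 and 0.495 by counting. In dura the pairs were 496 and 278, 464 and 270, and 151 and 78.9 CPM, folds of 0.560, 0.583 and 0.523. All 6 counting intervals lay below 1. In brain, Gas6 in Macro_2 was at 96.9 CPM in control (6 UMIs) and 19.0 and 11.0 CPM at 24 h (3 and 5 UMIs), while CAM_1 held 97.0, 109 and 117 CPM. In Macro_2 the fit over all 3 tissues gave -1.39 ± 0.42 with an adjusted p of 0.765 (edgeR). Without brain 24 h replicate 2 it gave -1.09 with an adjusted p of 0.00045, and Timd4 was then called as well (-1.43, adjusted p = 0.0236, edgeR). In that setting 109 genes were called higher and 91 lower in Macro_2, where the fit with this library called 0.

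Timd4 in Macro_2 was at 64.6 CPM in control brain and 0 and 2.21 CPM at 24 h, but the control value was 4 UMIs in 1 of 35 cells, so that no change in brain is read from it. This library also entered the call of Timd4 without brain 24 h replicate 2. Pia held 23.3 CPM in control and 10.7 CPM at 24 h (0.459-fold, interval 0.254 to 0.793), and dura held 9.19 and 3.79 CPM, with an interval that included 1 (0.13 to 1.14). Itgam was higher at 24 h in Macro_2 of pia (58.3 and 111 CPM, 1.90-fold) and dura (55.8 and 88.4 CPM, 1.58-fold). The fit over the tissues gave 0.92 ± 0.39 without passing the test (adjusted p = 1, edgeR).

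Msr1 was absent from the counts of both CAM clusters in control brain: 0 UMIs in 221 CAM_1 and 171 CAM_2 cells, which allows up to 7.86 and 15.3 CPM (limit of 3 counts per library). At 24 h it held 318 and 453.5 CPM in CAM_1, at least 40.5-fold and 57.7-fold higher, and 172.5 and 200.1 CPM in CAM_2, at least 11.3-fold and 13.1-fold. At 72 h both held 155 and 149 CPM. The first fold of each pair compares libraries with the same gene list. The second fold and the 72 h values cannot be told apart from the difference in gene list. Pia and dura carried Msr1 in control already, at 158 and 172.5 CPM in CAM_1, and at 24 h pia held 291.5 CPM (1.85-fold, interval 1.57 to 2.17) where dura held 185 CPM (1.07-fold, 0.813 to 1.43). The fit over tissues gave 1.79 ± 1.13 in CAM_1 (adjusted p = 0.847, edgeR), and whether the tissues differ in this change was not tested. The microglia markers given above were at their highest in CAM_1 and CAM_2 of control brain, and their part in this difference was not tested.

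Cd68 was higher at 24 h than control in pia and dura in all 3 clusters, by 1.26-fold to 1.66-fold, and every counting interval excluded 1. In brain it was higher in replicate 1 (2.04-fold in CAM_1, 1.91-fold in CAM_2 and 1.43-fold in Macro_2) and lower in replicate 2 (0.708, 0.661 and 0.419), the same split as in microglia. Axl in CAM_1 was higher at 24 h in pia (1.51-fold) and dura (1.64-fold), and at 0.274-fold and 0.611-fold the control in the brain replicates, where the interval of the second included 1.

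**Figure D5:**
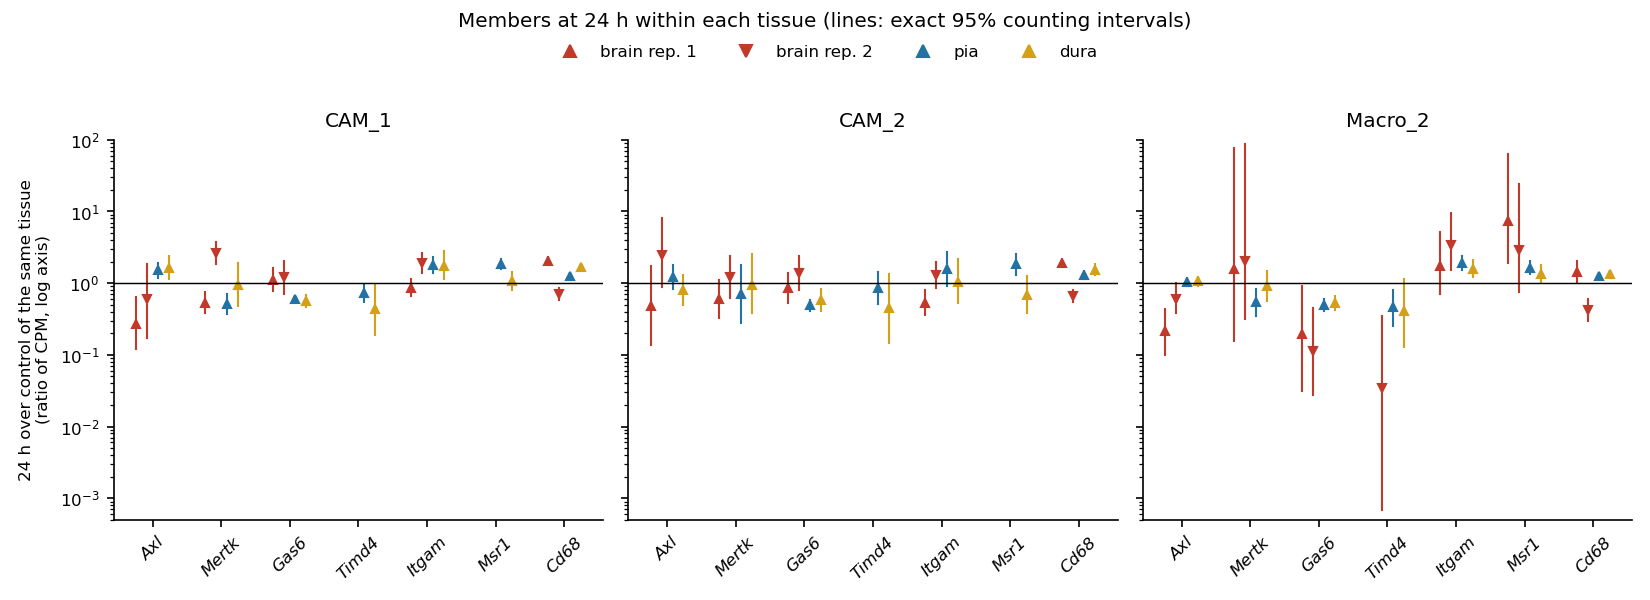
The y axis (log scale) gives CPM at 24 h divided by CPM in control of the same tissue for 7 members (x axis) in CAM_1, CAM_2 and Macro_2, with exact 95% counting intervals as lines. Pairs with a count of 0 on either side are not drawn. Gas6 lies below 1 in pia and dura of all 3 clusters, and the brain replicates lie on opposite sides of 1 for Cd68.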

How the data were processed

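Per the labels and the study's methods, CD45+CD45iv- leukocytes were profiled with 10x Chromium 3' kits, and the authors counted UMIs with Cell Ranger 6.0 on mm10 (submitters' processing notes). The deposited count matrices hold UMI counts without normalization, and a deposited table names the authors' cluster of each cell, made after their filters on genes and mitochondrial share per cell and their doublet removal with scDblFinder. No doublet caller was run here. Genes were matched by Ensembl identifier (30406 shared), and counts were summed per library and cluster. Levels are CPM, averaged over libraries with at least 30 cells.

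Groups were compared with edgeR 4.0.16 (R 4.3.3; filterByExpr, TMM, robust quasi-likelihood test) on 7 libraries with stage and tissue as terms, which leaves 3 residual degrees of freedom. A call needed a Benjamini-Hochberg adjusted p under 0.05 over all genes tested and a fold of at least 2. The method was tested on simulated data. For 1 library per state, exact 95% Poisson or conditional binomial intervals were given, which cover counting error only. Clusters were compared by log2 ratios within libraries, with 0.5 UMIs added. Shares used cells thinned to 1000 UMIs, with shallower cells left out, and the 5558 lymphoid cells as background.

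The 10 members and all lists were chosen with earlier results of these data known. All members are named, and of each pathway list the genes called, or otherwise up to 2 with the largest difference. Alternatives were DESeq2 1.42.0, library size scaling, no low-count filter, 1 model term, cells of at least 1000 UMIs, other pseudocounts and cell minima, and each library left out. Positions come from GENCODE M21 and promoters from RefSeq (GRCm38.p6). The 597 identifiers with another symbol in the 2 gene lists, and 1 list symbol without an identifier, touch no member. Of the lists, 1 microglia marker and 1 pathway gene are not reported here.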

Additional observations from a re-analysis of the deposited data

Results flagged for a closer look

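In 51 checks of groups of 4 libraries (44 of CPM in CAM_1, CAM_2 and Macro_2, and 7 of the SAMC ratios), 4 held a library far from the other 3. The groups mix tissues or times, so how many such cases chance alone would give cannot be stated. Among the 24 h libraries, brain 24 h replicate 2 stood apart for Mertk in CAM_1 (378.6 CPM against 32.5 to 76.6), for Itgam in CAM_2 (300.2 CPM against 100.2 to 125) and for Itgax in Macro_2 (128 CPM against 10.7 to 25.3). It is the library with the shorter gene list, and its part in the fits is given with the values without it. Among the border libraries, control pia stood apart for Mertk in CAM_1, at 73.8 CPM against 32.5 to 37.7.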

How the results depend on the processing

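Under other settings 44 values of single members in the fits of CAM_1, CAM_2 and Macro_2 changed direction, 25 lost a call and 15 gained one. The other 564 values were counted as the same. They include all values in SAMC and brain microglia, which were counted so even where the direction turned or a member gained a call. All 44 changes of direction were in values that had not passed the test.

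DESeq2 called 20, 5 and 8 genes at 24 h in CAM_1, CAM_2 and Macro_2, and 1084 and 113 genes between brain and border in CAM_1 and Macro_2. Without a low-count filter the counts were 56, 50 and 33 at 24 h and 1306, 512 and 385 between tissues. Without the other model term they were 0 at 24 h in CAM_2 and 87 between tissues in Macro_2, and with cells of at least 1000 UMIs 145 between tissues in CAM_2. The causes were not tested.

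With each library left out, the counts at 24 h ran from 0 to 370, 0 to 204 and 0 to 200 genes, each highest without brain 24 h replicate 2. Between tissues they ran from 48 to 2141, 15 to 1022 and 0 to 1189, each lowest without control brain, and highest without brain 24 h replicate 2 in CAM_1 and CAM_2 and without replicate 1 in Macro_2. Members called in SAMC ran from 0 to 1 (Cd5l, without brain 24 h replicate 2). In microglia they ran from 1 to 5 (Axl, Mertk, Itgam, Msr1 and Cd68, without replicate 1). Without replicate 1 the microglia rule set replicate 2 alone against control, across the 2 gene lists. The shares of all genes given above belong to the rules over all libraries and do not cover these counts.

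Log2 fold changes that turned at 24 h were, with library size alone, Axl in CAM_1 (0.0189), without the tissue term Axl (0.11) and Mertk (0.37) in CAM_1 and Axl in CAM_2 (-0.26), and with cells of at least 1000 UMIs Axl (-0.14) and Itgam (-0.13) in CAM_2. Between tissues they were Cd68 in CAM_2 (0.13 with library size alone, 0.0094 without the stage term and 0.17 with the deeper cells), and in Macro_2 Mertk (0.0586 by DESeq2, 0.32 with library size alone), Timd4 (0.0686, 0.29 and, with the deeper cells, 0.0278) and Msr1 (-0.0828 without the filter, -0.0686 with the deeper cells).

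With 1 library left out, some ranges of the fits crossed 0. At 24 h they were Axl -0.51 to 0.64 and Mertk -0.82 to 0.16 in CAM_1, and Axl -0.19 to 0.27 and Itgam -0.22 to 0.34 in CAM_2. In Macro_2 they were Axl -0.72 to 0.0131, Mertk -0.57 to 0.15 and Cd68 -0.15 to 0.37. Between tissues they were Msr1 -2.65 to 0.22 in CAM_1, Cd68 -0.40 to 0.27 in CAM_2, and Mertk -0.58 to 0.25, Msr1 -0.58 to 0.57 and Timd4 -2.21 to 0.77 in Macro_2. Log2 ratios at 24 h in brain microglia crossed 0 too, for Mertk (-0.24 to 2.19), Itgam (-0.59 to 1.34), Cd68 (-1.27 to 0.63) and Cd5l (-0.05 to 2.88). The ratio of Gas6 in SAMC to macrophage clusters ran from -0.92 to 0.18.

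Calls of Gas6 in CAM_2 were lost with library size alone (-1.58, adjusted p = 0.0521), and those of Axl and Gas6 in CAM_2 with the deeper cells (-2.20 and -1.43, adjusted p = 0.094 and 0.0833, edgeR). No pairing of libraries by animal was possible, because the mice behind each library are not given. Brain, pia and dura libraries of 1 stage may share animals, and the fits treat them as independent. Depth limits Marco, Cd5l and Timd4, which rest on few UMIs, and brain Macro_2, with 35 cells in control. In simulated counts 37% to 73% of genes changed 4-fold were recovered at 24 h, and 20% to 51.5% between tissues. Of the calls made there, 2.41%, 6.33% and 11.5% were false at 24 h in CAM_1, CAM_2 and Macro_2, and 0%, 4.63% and 5.62% between tissues. Apart from the changed genes, the simulated libraries had the same means. They held no other tissue difference and no shift of brain 24 h replicate 2, so these rates describe a simpler case than the data.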
